A study of Mus musculus and Homo sapiens with 9 samples.

Results

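NF-kB transcription factors are dimers of 5 related proteins, encoded by NFKB1, NFKB2, REL, RELA and RELB. In resting cells IkB proteins hold the dimers in the cytoplasm, and antigen receptor, TNF receptor and other signals lead to phosphorylation and loss of IkB, after which the dimers enter the nucleus and raise the transcription of inflammatory and survival genes, among them genes of their own inhibitors. In T cells this route is started by the T cell receptor and CD28, while a second, non-canonical route runs through the kinase encoded by MAP3K14 and the processing of the NFKB2 precursor. The 10 genes described here are the 5 subunit genes, the classical IkB genes NFKBIA, NFKBIB and NFKBIE, the nuclear IkB relative BCL3, which acts as a cofactor of NFKB1 and NFKB2 homodimers, and TNFAIP3, which encodes the ubiquitin-editing enzyme A20 that restrains signaling upstream of the IkB kinase. They were chosen by symbol and not by their measured values. All 10 were found among 56105 annotated genes of the human table and, in mouse spelling, among 42462 annotated genes of the mouse table.

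RNA-seq had been performed on J.gamma1 cells, a T-cell acute lymphoblastic leukemia (T-ALL) line derived from Jurkat that was selected for lack of the phospholipase PLC-gamma1, carrying a control hairpin (sh-NC, 2 libraries) or a hairpin against IRF2BP2 (sh-IRF2BP2, 2 libraries). It had also been performed on CD3+ T cells sorted magnetically from mouse spleens, with 3 control libraries labelled Wild type, Vav-iCre-/-;Irf2bp2 fl/fl by the methods of the study, and 2 Irf2bp2 KO libraries, Vav-iCre+/-;Irf2bp2 fl/fl. All mouse groups therefore carried the floxed alleles, and Vav-iCre acts throughout the blood lineages, so deletion was not limited to T cells. Mice of these genotypes were killed at 6 weeks of age for flow cytometry, and no separate age is given for the sequenced ones. The number of hairpins or clones behind each J.gamma1 group is not stated in the sources used here. Each library is given in its group's order as CPM, that is counts per 1000000 counts of the library after scaling by the trimmed mean of M-values. A gene was called where edgeR's quasi-likelihood test gave a Benjamini-Hochberg adjusted p under 0.05 over all genes of its table. The labels do not say whether replicates came from separate cultures or animals, so p-values measure the spread between these libraries.

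The libraries held 26648204 to 31120236 counts in J.gamma1 cells and 16668577 (control replicate 3) to 37177523 counts in mouse. IRF2BP2 had 204 and 199 CPM with sh-NC and 79.0 and 93.8 CPM with sh-IRF2BP2 (log2 fold change -1.22, SE 0.131, edgeR adjusted p = 0.0023). Irf2bp2 had 4145, 4594 and 1915 counts in the control group and 0 in both KO libraries, which against a limit of 3 counts per library is at least 1415-fold lower. Summed T cell markers were at 1901 to 2113 CPM with sh-NC and 1909 to 2032 CPM with sh-IRF2BP2, although 3 of the 11 were called higher and 1 lower. Cycling cell markers summed to 2476 to 2700 CPM with sh-NC and 2393 to 2423 CPM with sh-IRF2BP2, without overlap (1 of 6 called lower). What these shifts add to the values below was not tested. Myeloid and plasma cell markers summed to under 1 CPM in each J.gamma1 library. Summed B cell markers went from 62.5 to 79.1 CPM with sh-NC to 29.1 to 31.3 CPM with sh-IRF2BP2 (1 called lower), dendritic cell markers from 9.27 to 9.77 CPM to 2.75 to 3.63 CPM (1 called lower) and natural killer cell markers from 2.32 to 3.09 CPM to 7.87 to 8.11 CPM (1 called higher), and their part in the values below was not tested. In mouse, summed T cell markers were at 7071 to 7860 CPM in the control group and 5307 to 5627 CPM in the KO group, and no listed marker of another cell type was at 0 in all libraries. Summed B cell markers were at 1237 to 2223 CPM in the control and 3931 to 5643 CPM in the KO group. However, 1 of the 10 was called higher and their median log2 fold change was -1.15, so that the sum did not speak for most of the list. Erythroid markers were at 300.1 to 1140 CPM and 2762 to 3798 CPM, where 5 of 9 were called higher. Cycling cell markers were at 105 to 205 CPM and 749 to 830 CPM (2 of 6 called higher). Dendritic cell markers were at 8.13 to 31.6 CPM and 36.1 to 47.7 CPM, with none called. Summed plasma cell, myeloid, natural killer cell and platelet markers overlapped between the groups. The part of these shifts in the values below was not tested.

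The promoters of the genes on which the results turn are shown first, because NF-kB genes are known for binding sites of the factor in their own promoters. Each run spans 250 bases before to 50 bases after a start site, read 5′ to 3′ on the strand of the gene. Capitals mark matches, on either strand, to the 10-base kB consensus, and overlapping matches merge into 1 run of capitals. REL (hg38 chr2:60881324-60881623, plus strand), TNFAIP3 (hg38 chr6:137867009-137867308, plus strand) and BCL3 (hg38 chr19:44748458-44748757, plus strand) were the genes called in J.gamma1 cells. NFKBIA (hg38 chr14:35404700-35404999, minus strand) is the standard feedback gene of the pathway. Bcl3 (GRCm38.p6 chr7:19822706-19823005, minus strand) and Tnfaip3 (GRCm38.p6 chr10:19015361-19015660, minus strand) are from the RefSeq promoter table and are the mouse genes with the widest spread between libraries.
REL: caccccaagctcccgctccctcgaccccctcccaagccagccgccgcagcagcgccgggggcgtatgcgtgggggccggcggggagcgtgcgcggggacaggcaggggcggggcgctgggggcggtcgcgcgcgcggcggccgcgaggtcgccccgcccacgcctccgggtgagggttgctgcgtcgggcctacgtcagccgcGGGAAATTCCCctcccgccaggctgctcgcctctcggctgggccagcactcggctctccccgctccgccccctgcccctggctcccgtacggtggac
TNFAIP3: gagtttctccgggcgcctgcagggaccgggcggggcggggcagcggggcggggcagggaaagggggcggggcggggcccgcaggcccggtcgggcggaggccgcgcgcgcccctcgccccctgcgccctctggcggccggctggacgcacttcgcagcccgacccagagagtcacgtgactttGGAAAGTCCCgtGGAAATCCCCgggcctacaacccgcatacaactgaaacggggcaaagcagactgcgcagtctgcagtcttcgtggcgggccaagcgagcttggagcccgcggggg
BCL3: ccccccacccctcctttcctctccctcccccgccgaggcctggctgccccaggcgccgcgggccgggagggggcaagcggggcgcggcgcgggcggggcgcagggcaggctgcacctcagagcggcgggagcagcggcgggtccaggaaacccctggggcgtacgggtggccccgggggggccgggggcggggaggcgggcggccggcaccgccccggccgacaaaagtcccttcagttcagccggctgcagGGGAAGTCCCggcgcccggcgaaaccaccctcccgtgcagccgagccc
NFKBIA: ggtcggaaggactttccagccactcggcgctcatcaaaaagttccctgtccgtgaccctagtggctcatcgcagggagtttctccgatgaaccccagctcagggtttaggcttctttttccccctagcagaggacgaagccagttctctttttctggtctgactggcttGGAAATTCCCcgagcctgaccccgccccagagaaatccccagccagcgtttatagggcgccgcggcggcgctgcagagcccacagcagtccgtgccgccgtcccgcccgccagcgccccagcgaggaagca
Bcl3: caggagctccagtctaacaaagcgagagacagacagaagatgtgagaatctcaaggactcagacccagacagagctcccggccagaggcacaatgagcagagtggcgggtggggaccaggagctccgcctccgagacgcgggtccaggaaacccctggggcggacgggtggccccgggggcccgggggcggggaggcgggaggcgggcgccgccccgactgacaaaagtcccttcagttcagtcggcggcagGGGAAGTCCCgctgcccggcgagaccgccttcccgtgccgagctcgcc
Tnfaip3: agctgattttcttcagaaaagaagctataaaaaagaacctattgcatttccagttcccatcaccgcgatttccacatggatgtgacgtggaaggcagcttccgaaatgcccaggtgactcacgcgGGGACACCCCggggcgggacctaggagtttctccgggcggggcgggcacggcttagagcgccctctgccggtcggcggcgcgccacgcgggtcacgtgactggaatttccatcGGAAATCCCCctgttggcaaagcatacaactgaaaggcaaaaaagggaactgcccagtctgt

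In the human windows the kB consensus was found at 9 of 10 genes, RELA being the exception. Over 20046 protein-coding promoters of the same length, 6.56% held it. REL had a pair of overlapping matches beginning 47 and 46 bases before the start, TNFAIP3 had matches beginning 67 and 55 bases before it, NFKBIA 81 bases before it, and BCL3 at base 3 of the transcript. The Bcl3 window of the mouse held a match at the same base 3, and 6 of the 8 mouse genes in the RefSeq promoter table (all but Nfkb1 and Relb) held at least 1 match. By window, since Nfkb2 and Tnfaip3 have more than 1, 8 of 11 held a match, against 4.97% of 20150 windows of protein-coding genes. The other Tnfaip3 window, farther into the gene, held none, and Nfkbib and Rela held none. A looser set of letters, GGG and CC with 5 bases between, was in 69.1% of human and 58.1% of mouse promoters and so did not separate these genes from others. The consensus was chosen after the data were seen, and a match is a description of letters and not of binding.

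In J.gamma1 cells with sh-IRF2BP2, REL, TNFAIP3 and BCL3 rose and none of the 10 genes fell. The called share over all 15819 genes tested was 5.83% higher and 5.32% lower, against 3 of 10 members called higher. The median log2 fold change of the 10 genes was 0.39, against 0.01 over all genes. In 6 of the 10 genes both sh-IRF2BP2 libraries lay above both sh-NC libraries and in none below, where over all genes 29.6% were higher and 28.7% lower without overlap. The number of members called was 2 without sh-IRF2BP2 replicate 1, 1 without sh-IRF2BP2 replicate 2 and 1 when every gene with a count in some library was tested, BCL3 being called each time.

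**Figure D1:**
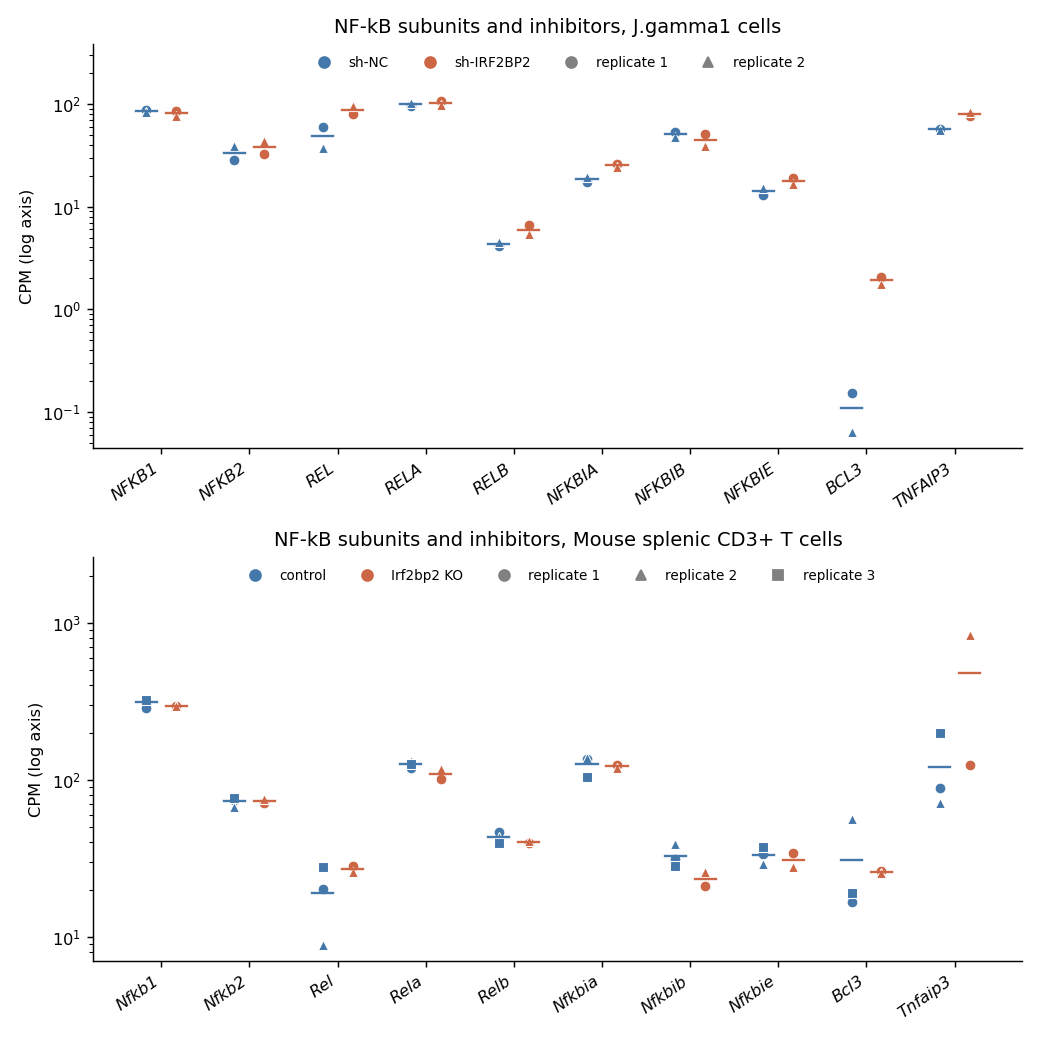
Each point is the CPM (log axis) of 1 gene in 1 library, with a bar at the group mean, for J.gamma1 cells above and mouse CD3+ T cells below. In J.gamma1 cells BCL3 went from 0.109 to 1.91 CPM on average, and in mouse Tnfaip3 stood at 841 CPM in KO replicate 2 and at 125 CPM in KO replicate 1.

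Of the subunit genes, REL, which encodes c-Rel, the subunit prominent in activated lymphocytes (hg38 chr2:60881491-60931612, plus strand, 8 merged exons), was the 1 gene of 5 that passed the test. It had 59.7 and 37.2 CPM with sh-NC and 79.8 and 94.99 CPM with sh-IRF2BP2. Both sh-IRF2BP2 libraries were above both controls, which themselves lay farther apart than the others. The log2 fold change was 0.85 (95% interval 0.36 to 1.35, SE 0.214, edgeR adjusted p = 0.043). The call was lost without sh-IRF2BP2 replicate 2 (log2 fold change 0.72, adjusted p = 0.081), where the remaining library of that group is assumed to vary like the others, and the adjusted p ranged from 5.06e-05 to 0.14 over 13 alternatives. With sh-NC replicate 2 left out the log2 fold change was 0.55, and with sh-NC replicate 1 left out it was 1.23. REL shares 5702 exon bases on the same strand with a long non-coding RNA gene, ENSG00000267520, that had 38 and 110 counts with sh-NC and 75 and 209 counts with sh-IRF2BP2 against 1154 to 2800 counts of REL. Reads in the shared bases could have been counted to either gene.

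RELA encodes the p65 subunit that carries the main transactivation domain of the canonical dimer. It had 96.0 and 102.8 CPM with sh-NC and 105.8 and 97.9 CPM with sh-IRF2BP2, so the groups overlapped. Its log2 fold change was 0.03 (95% interval -0.23 to 0.30, edgeR adjusted p = 0.88), and the sign turned to -0.02 with upper-quartile scaling. NFKB1, whose precursor gives the p50 partner of RELA and REL, had 86.5 and 83.7 CPM against 85.3 and 77.01 CPM (log2 fold change -0.07, 95% interval -0.34 to 0.20, edgeR adjusted p = 0.75). The intervals of RELA and NFKB1 were the narrowest of the 10 genes together with that of TNFAIP3.

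The genes of the non-canonical dimer were lower in level or wider in spread. NFKB2 had 28.3 and 38.7 CPM with sh-NC and 32.7 and 43.4 CPM with sh-IRF2BP2, and the replicates of each group differed more than the group means (log2 fold change 0.18, 95% interval -0.27 to 0.63). RELB, the partner of processed NFKB2, had 4.13 and 4.51 CPM with sh-NC and 6.56 and 5.39 CPM with sh-IRF2BP2. The RELB groups did not overlap, and its log2 fold change of 0.47 (95% interval -0.11 to 1.05) had an edgeR adjusted p of 0.27.

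Of the inhibitors, BCL3 had the largest fold change of the 10 genes. It was counted 4 and 2 times with sh-NC and 60 and 52 times with sh-IRF2BP2, that is 0.154 and 0.0645 CPM against 2.06 and 1.76 CPM. BCL3 met the main expression filter only through the sh-IRF2BP2 libraries, so it was tested because of the group where it is high. With 2 counts, sh-NC replicate 2 was under the limit of 3 counts, and the size of the fold rests on near-absent sh-NC counts. The summed counts, 112 against 6, gave a depth-adjusted ratio of 18.1 with a 95% exact interval of 8.07 to 50.5 that covers counting error only. The log2 fold change in edgeR was 4.11 (SE 0.594, adjusted p = 0.006), and BCL3 passed in each of 13 alternatives, with adjusted p from 6.27e-05 to 0.021. These alternatives include fold thresholds set on the same main fit. Per kilobase of merged exons BCL3 remained the lowest of the 10 genes in the sh-IRF2BP2 libraries, at 0.618 ± 0.0678 CPM (SD, n = 2).

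TNFAIP3 (hg38 chr6:137867214-137883314, plus strand) had 57.2 and 55.9 CPM with sh-NC and 76.2 and 83.6 CPM with sh-IRF2BP2. The groups did not overlap, and the controls differed little from each other. The log2 fold change was 0.50 (95% interval 0.23 to 0.77, SE 0.117, edgeR adjusted p = 0.034). Leaving out sh-IRF2BP2 replicate 1 or 2 ended the call (adjusted p = 0.13 and 0.22) with log2 fold changes of 0.54 and 0.43, and the adjusted p ranged from 0.0079 to 0.22 over 13 alternatives.

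NFKBIA encodes IkB-alpha, the inhibitor resynthesized after each round of NF-kB activation. It had 17.5 and 19.6 CPM with sh-NC and 26.2 and 24.3 CPM with sh-IRF2BP2. The groups did not overlap, and the log2 fold change of 0.44 (95% interval 0.10 to 0.79, SE 0.150) did not pass the test over all genes (edgeR adjusted p = 0.10, from 0.049 to 0.44 over 13 alternatives). NFKBIE, which encodes IkB-epsilon, had 13.1 and 15.02 CPM against 18.9 and 16.4 CPM (log2 fold change 0.33, 95% interval -0.08 to 0.74, edgeR adjusted p = 0.27). NFKBIB, which encodes IkB-beta, had 52.9 and 48.0 CPM against 50.6 and 39.1 CPM, with overlapping groups and a log2 fold change of -0.17 (95% interval -0.52 to 0.18, edgeR adjusted p = 0.52). NFKBIB shares 40 exon bases with the opposite-strand gene SIRT2, TNFAIP3 shares 95 with the opposite-strand WAKMAR2 and RELA shares 103 with the opposite-strand RELA-DT. BCL3 shares 65 with the same-strand microRNA gene MIR8085. Whether counting used strand is not stated in the sources used here.

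None of the 10 genes had the word GGTCTAA or AGGTCTA in an annotated 3′ UTR. These words were taken up because genes holding them had been lower with sh-IRF2BP2 in an earlier result of these data. The shares that follow are therefore a description and not a test. Of 1586 tested genes holding either word 16.1% were called lower, against 4.92% of 11072 genes holding neither.

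**Figure D2:**
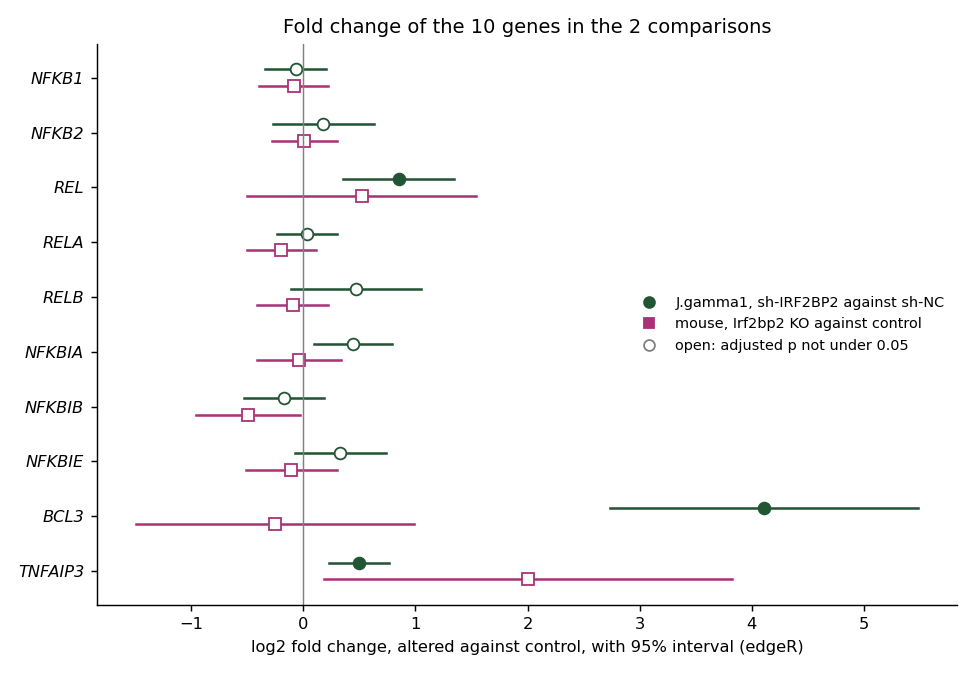
Points are edgeR log2 fold changes of the altered against the control libraries and lines are 95% intervals, for J.gamma1 cells (circles) and mouse T cells (squares), filled where the adjusted p was under 0.05. REL, BCL3 and TNFAIP3 are filled in J.gamma1 cells and no gene is filled in mouse.

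In mouse CD3+ T cells none of the 10 genes was called. By edgeR 0 of 10 passed in either direction, 2 had an unadjusted p under 0.05 (Tnfaip3 and Nfkbib), and DESeq2 also called 0. Unadjusted edgeR p-values that low were common, since Nfkbib at 0.040 was at rank 2227 of the 15350 genes tested. Over all 15350 genes tested, 2.68% were called higher and 0.15% lower. The median log2 fold change of the 10 genes was -0.09, against -0.02 over all genes. None of them was higher without overlap of the groups and 2 were lower, Rela and Nfkbib, where over all genes 18.2% were higher and 17.8% lower. Fewer cells of a type and less RNA per cell cannot be told apart in these bulk samples, and the part of the erythroid RNA described above in these values was not tested.

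The subunit genes kept narrow ranges with the exception of Rel. Nfkb1 had 287, 333 and 325 CPM in the control group and 298 and 296 CPM in the KO group (log2 fold change -0.08, 95% interval -0.39 to 0.22). Rela had 119, 132 and 126 CPM against 102 and 118 CPM, with a gap of less than 1 CPM between the nearest libraries of the groups and a log2 fold change of -0.20 (95% interval -0.50 to 0.11, edgeR adjusted p = 0.54). Nfkb2 had 74.5, 67.6 and 77.1 CPM against 71.7 and 75.5 CPM (log2 fold change 0.01, 95% interval -0.28 to 0.30). Relb had 46.6, 43.3 and 39.7 CPM against 39.9 and 41.1 CPM (log2 fold change -0.09, 95% interval -0.41 to 0.22). For these genes of the main dimers each 95% interval lay within about 0.5 on the log2 scale of zero. Nfkb2 shares 531 exon bases with the opposite-strand non-coding RNA gene AC114539.1 and 299 with the opposite-strand gene Psd. Rel, the lowest subunit gene per kilobase, had 20.2, 8.82 and 28.1 CPM in the control group and 28.3 and 26.0 CPM in the KO group. Control replicate 2 was the low library, and the log2 fold change of 0.52 had a wide 95% interval of -0.50 to 1.54 (edgeR adjusted p = 0.63), and was 0.19 without control replicate 2 and 0.90 without control replicate 3, with no call.

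Of the IkB genes, Nfkbia had 136, 137 and 104 CPM in the control group and 125 and 120 CPM in the KO group, both inside the control range (log2 fold change -0.04, 95% interval -0.42 to 0.33). Nfkbie had 33.6, 29.3 and 37.3 CPM against 34.1 and 27.9 CPM (log2 fold change -0.11, 95% interval -0.51 to 0.30). Nfkbib had 31.4, 39.2 and 28.3 CPM against 21.2 and 25.7 CPM, both KO libraries lying below all controls. Its log2 fold change of -0.49 (95% interval -0.95 to -0.03, SE 0.193) had an unadjusted p of 0.040 and an edgeR adjusted p of 0.28, from 0.10 to 0.85 over 14 alternatives. Nfkbib shares 314 exon bases with the opposite-strand gene Ccer2 and 42 with Sirt2.

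Tnfaip3 and Bcl3 each had 1 library far from the others of its group. Tnfaip3 had 89.5, 71.9 and 200 CPM in the control group and 125 and 841 CPM in the KO group, so that KO replicate 1 lay within the control range and KO replicate 2 well above it. The log2 fold change of 2.01 (95% interval 0.19 to 3.83, edgeR adjusted p = 0.26) became 0.03 without KO replicate 2 (adjusted p = 0.997). Among 7364 genes with a mean of at least 20 CPM, the ratio of KO replicate 2 to KO replicate 1 was 6.75 for Tnfaip3, second in rank, and Fosb, Jun and Junb followed with ratios of 5.35, 5.30 and 3.86. These are immediate early genes, induced within minutes in stressed or stimulated cells. Junb had 142, 158 and 472 CPM in the control group and 200 and 771 CPM in the KO group, Jun had 6.86, 10.4 and 92.2 CPM against 46.3 and 246 CPM, and Dusp1 had 19.2, 39.4 and 77.5 CPM against 81.6 and 304 CPM. Control replicate 3 and KO replicate 2 were the highest libraries of their groups for Tnfaip3, Junb, Jun, Fos and Dusp1. Egr1, another immediate early gene, showed this only in the KO group. It had 74.0, 101 and 46.7 CPM in the control group and 66.3 and 75.6 CPM in the KO group. Nfkbiz, which encodes a nuclear IkB relative, was highest within its groups in control replicate 3 and KO replicate 2. It had 51.6, 50.01 and 74.9 CPM in the control group and 53.3 and 115 CPM in the KO group. Nfkbia, also a target of NF-kB, was lowest in control replicate 3 at 104 CPM and had 120 CPM in KO replicate 2. The immediate early genes other than Junb, and Nfkbiz among the values shown here, were chosen after their values were seen, and their part in the level of Tnfaip3 was not tested.

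Bcl3 had 16.8, 56.5 and 19.1 CPM in the control group and 26.3 and 25.5 CPM in the KO group. Control replicate 2 was the high library. The log2 fold change of -0.25 (95% interval -1.49 to 0.98, edgeR adjusted p = 0.87) turned to 0.55 without control replicate 2 (SE 0.159, adjusted p = 0.14), and both KO libraries were then above the other controls. In control replicate 2 the 10 myeloid markers summed to 432 CPM against 47.4 to 167 CPM in the other controls and 101 to 160 CPM in the KO group, and none of the 10 was at 0 in all libraries. Lyz2 and Mpo, chosen after their values were seen, had 120 and 51.1 CPM in that library and at most 42.2 and 30.1 CPM in the others. Cd79a, a B cell marker chosen in the same way, had 62.1 CPM there and at most 32.8 CPM in the others. The summed B cell markers were at 2223 CPM there, below the 5643 and 3931 CPM of the KO libraries. The part of these markers in the level of Bcl3 was not tested. Bcl3 shares 161 exon bases with the opposite-strand gene Gm16175. In mouse T cells Bcl3 was counted 305 times or more in each library, whereas it was counted 4 times or fewer in each sh-NC library of J.gamma1 cells.

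**Figure D3:**
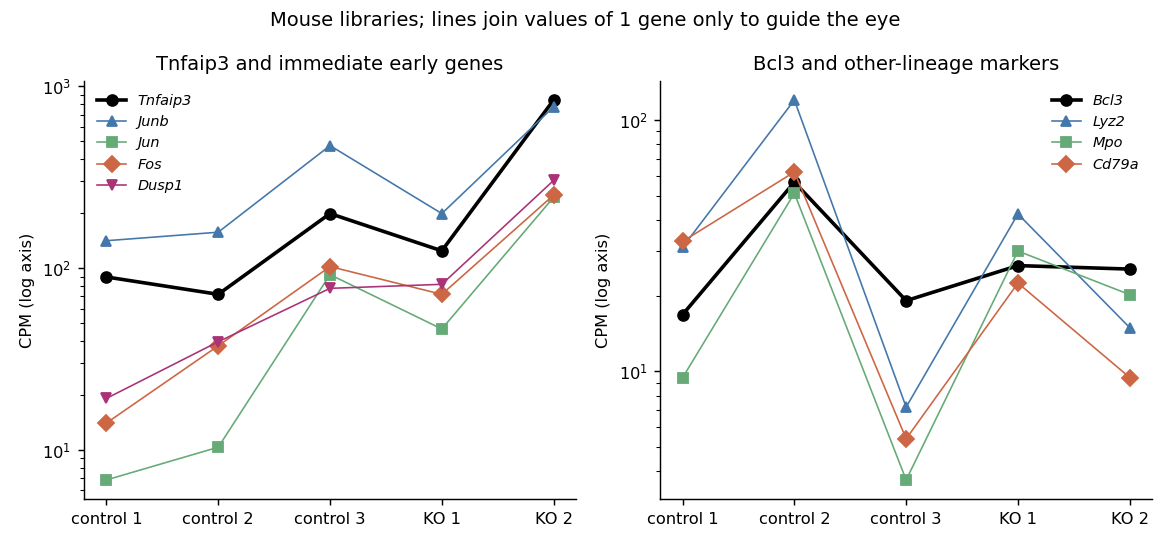
CPM (log axis) in the 5 mouse libraries, with lines joining the values of 1 gene. Tnfaip3 is shown with immediate early genes (left), and Bcl3 with the myeloid markers Lyz2 and Mpo and the B cell marker Cd79a (right). Tnfaip3, Junb, Jun, Fos and Dusp1 were highest in KO replicate 2 and, within the control group, in control replicate 3. Bcl3 and these chosen markers were highest in control replicate 2, whereas the summed B cell markers were higher in both KO libraries.

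Levels were compared between genes only per length, as CPM per kilobase of merged exons. With this length NFKBIB was highest in sh-NC cells at 21.7 ± 1.51 (SD, n = 2) and RELA next at 18.2 ± 0.878, followed by TNFAIP3 at 8.78 ± 0.144. NFKB2, NFKBIA, NFKBIE and NFKB1 followed at 5.43 to 6.01 and did not differ beyond their spread, REL was at 2.83 ± 0.931, RELB at 1.44 ± 0.0896 and BCL3 at 0.0354 ± 0.0206. RELA made up 53.7% of the summed level of the 5 subunit genes with sh-NC and 49.5% with sh-IRF2BP2. REL made up 6.24% to 10.6% with sh-NC and 12.4% to 14.6% with sh-IRF2BP2, without overlap. The shares of NFKB1 and RELA were lower and that of RELB higher with sh-IRF2BP2, also without overlap. Shares of a sum depend on each other, and the CPM values of RELA itself overlapped between the groups. In the control mouse cells Nfkbia was highest at 78.1 ± 11.6 (SD, n = 3), then Rela at 41.0 ± 2.13 and Nfkb1 at 26.1 ± 2.01, and Rel was lowest at 2.55 ± 1.298. NFKBIB, the highest of the genes in sh-NC cells, was at 15.2 ± 2.58 in control mouse cells, below 5 of the other genes, and NFKBIA, the highest in control mouse cells, was at 5.47 ± 0.430 in sh-NC cells. The tables were scaled separately and come from different species and cells. The summed level of the 3 classical IkB genes relative to the 5 subunit genes was 0.963 ± 0.0508 with sh-NC and 0.890 ± 0.128 with sh-IRF2BP2 (SD, n = 2 each), and 1.08 ± 0.147 (n = 3) and 1.07 ± 0.0731 (n = 2) in control and KO mice. The ranges of the libraries overlapped in both comparisons. The order and the ratios depended on the length used. With the longest transcript RELA was first in sh-NC cells at 31.2 ± 1.505, NFKBIB next at 22.9 ± 1.59 and NFKB1 after them at 12.1 ± 0.278, and Nfkb1 made up 48.3% of the subunit level in control mice in place of 27.0%.

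**Figure D4:**
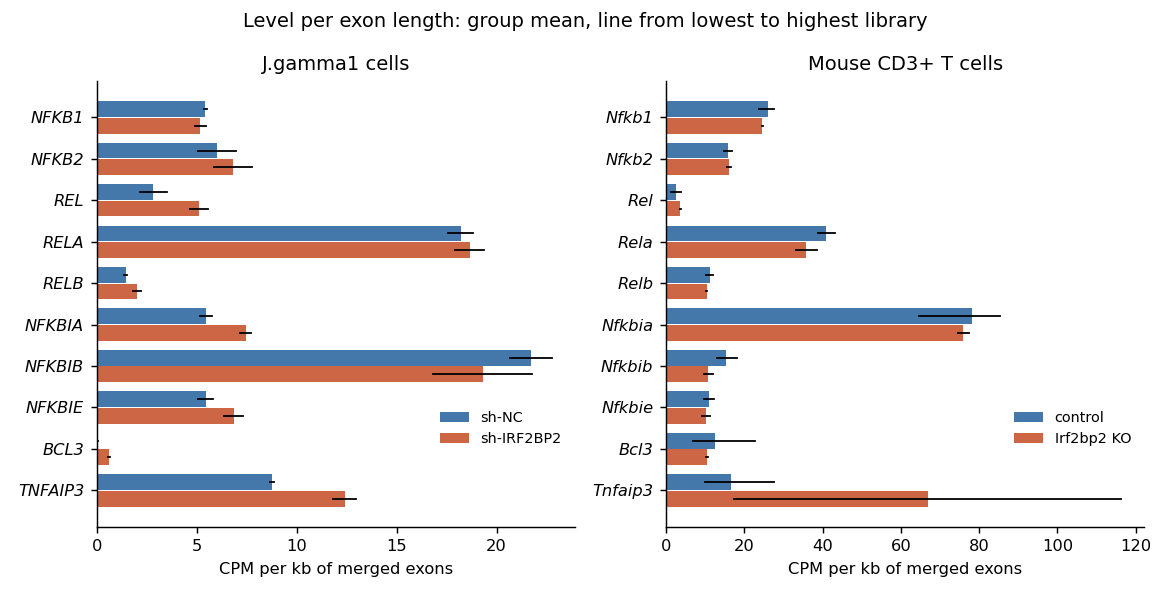
Bars are group means of CPM per kilobase of merged exons for the 10 genes in J.gamma1 cells (left) and mouse T cells (right), and lines run from the lowest to the highest library. On this length NFKBIB and RELA lead in J.gamma1 cells and Nfkbia leads in control mouse cells.

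Of the other genes of the pathway, 98 were listed by role, of which 70 were tested in J.gamma1 cells and 90 in mouse. In J.gamma1 cells 12 rose and 4 fell, where over all genes 5.83% were called higher and 5.32% lower, so the number that fell was near the background (median log2 fold change 0.19, against 0.01 over all genes). Of the 10 kinase genes 2 rose and none fell. MAP3K14, which encodes the NF-kB inducing kinase of the non-canonical route, had 17.4 and 16.3 CPM with sh-NC and 50.5 and 43.3 CPM with sh-IRF2BP2 (log2 fold change 1.48, SE 0.144, edgeR adjusted p = 0.0017). IKBKE, which encodes an IkB kinase relative, had 21.05 and 20.4 CPM against 37.7 and 37.4 CPM (log2 fold change 0.86). Of the 20 adaptor and ubiquitin enzyme genes 2 rose and 2 fell. TRAF3, whose product is an adaptor in the degradation of the MAP3K14 kinase, fell from 131 and 112 CPM to 70.4 and 67.5 CPM (log2 fold change -0.81, edgeR adjusted p = 0.008). That degradation acts on protein, which was not measured here, and a link with the MAP3K14 RNA was not tested. BIRC3, a ubiquitin ligase that acts with TRAF3 and is itself a known NF-kB target, rose from 35.4 and 31.6 CPM to 51.4 and 61.3 CPM (log2 fold change 0.75). The linear ubiquitin chain complex moved in both directions, as RNF31, its catalytic subunit gene, rose (log2 fold change 0.66) and RBCK1, a partner subunit gene, fell (log2 fold change -0.80).

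Of the genes of the antigen receptor route, CD28, the costimulatory receptor gene, rose from 26.1 and 25.5 CPM to 42.1 and 48.5 CPM (log2 fold change 0.81, edgeR adjusted p = 0.010), and PDPK1, a kinase gene, rose with a log2 fold change of 0.67 (adjusted p = 0.049). Among 4 genes of other IkB proteins and IkB-binding GTPases, NKIRAS2 rose (50.2 and 46.1 CPM to 83.8 and 75.04 CPM, log2 fold change 0.72). No receptor gene of 7 tested passed. Of 7 ligand genes tested, CD40LG rose from 17.6 and 18.9 CPM to 56.1 and 53.6 CPM (log2 fold change 1.58, edgeR adjusted p = 0.0011), and TNFSF4 fell from 8.30 and 5.35 CPM to 2.10 and 1.80 CPM (log2 fold change -1.81). Of the 15 target genes tested 3 rose and 1 fell, with a median log2 fold change of -0.14. IL2RA, the alpha chain gene of the IL-2 receptor, was counted 2 and 2 times with sh-NC and 57 and 94 times with sh-IRF2BP2, and rose (edgeR adjusted p = 0.003), with a depth-adjusted count ratio of 36.7 (95% exact interval 14 to 136, for counting error only). Like BCL3, IL2RA met the main expression filter only through the sh-IRF2BP2 libraries, and its sh-NC counts were under the limit of 3 counts. CD83 rose (log2 fold change 0.68) and IRF1 rose (log2 fold change 0.50, adjusted p = 0.049), whereas BCL2 fell from 65.3 and 45.8 CPM to 27.6 and 22.6 CPM (log2 fold change -1.14). Without sh-IRF2BP2 replicate 1 the number of pathway genes called was 9 in place of 16.

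In mouse T cells 2 of the 90 other pathway genes rose and none fell, which is near the background of 2.68% called higher and 0.15% lower over all genes (median log2 fold change 0.0019, against -0.02 over all genes), and 17 had an unadjusted p under 0.05. Such values were common over all genes, as Nfkbib at 0.040 was at rank 2227 of 15350. Of the 25 target genes tested 20 had a log2 fold change above 0, with a median of 0.22. Without overlap 6 of them were higher and 2 lower, where over all genes 18.2% and 17.8% were. The medians of the other lists lay between -0.29 and 0.03, and no list was tested as a set. Both called genes were chemokine target genes that effector T cells and natural killer cells express. Ccl5 had 96.1, 80.4 and 81.1 CPM in the control group and 175 and 268 CPM in the KO group (log2 fold change 1.37, edgeR adjusted p = 0.022), and Ccl4 had 1.35, 2.68 and 1.69 CPM against 9.32 and 9.72 CPM (log2 fold change 2.31, adjusted p = 0.025). Without control replicate 1 or without KO replicate 2 the number called was 0, without control replicate 3 or KO replicate 1 it was 1, without control replicate 2 it was 5, and DESeq2 called 8, of which 4 rose and 4 fell. Map3k14 had a log2 fold change of -0.13 and Traf3 of -0.07 in mouse, with edgeR adjusted p-values of 0.74 and 0.91.

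**Figure D5:**
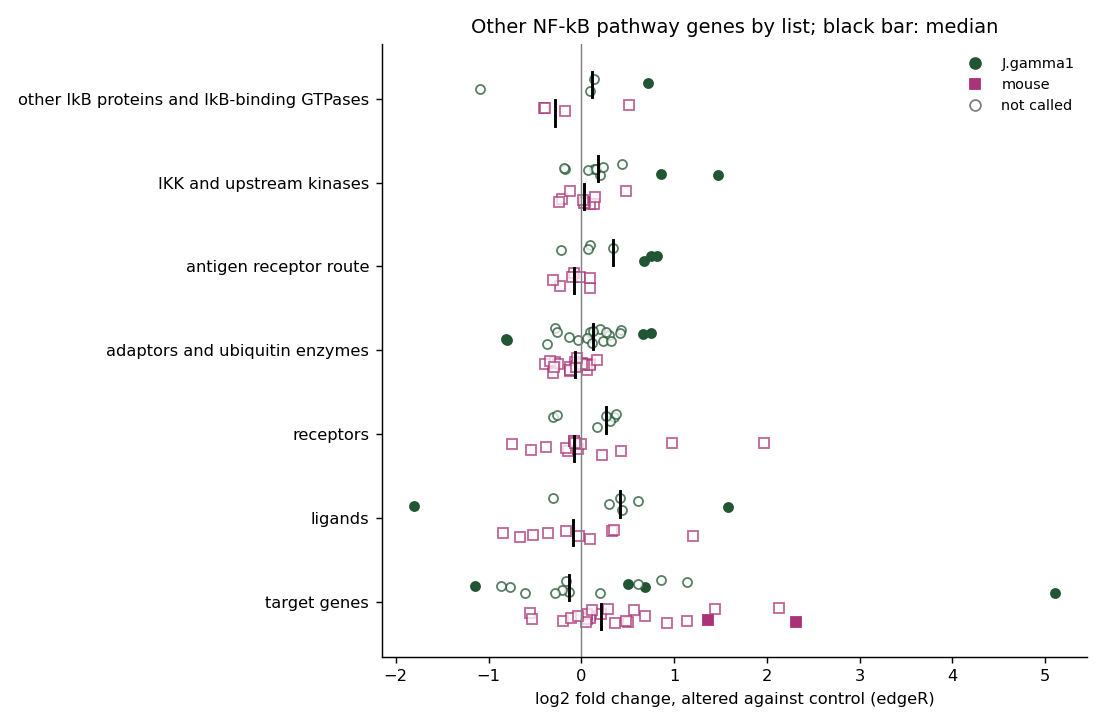
Each point is the edgeR log2 fold change of 1 tested pathway gene in J.gamma1 cells (circles) or mouse T cells (squares), by list, filled where called, with a black bar at the list median. Filled points are 16 in J.gamma1 cells and 2 in mouse.

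The genes whose pattern over the 9 libraries was most like that of NFKBIA, by Pearson r of log2 CPM centred within each table among 7024 genes with at least 10 CPM, were BTF3L4 (r = 0.99), SH2D1A (0.98), RNH1 (0.97), GET4 (0.96) and CALM3 (0.96). The points share libraries and the contrast within each table. These genes are the highest of that many correlations over 9 points. High values are expected from such a choice alone, and no link with NFKBIA was tested. Of the other 7 members at that level, r lay between -0.32 (NFKB1) and 0.41 (NFKBIE), with REL at 0.02 and TNFAIP3 at -0.16.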

How the data were processed

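Total RNA libraries (Illumina TruSeq) had been sequenced by the authors, aligned with HISAT2 2.2.0 and summarised with StringTie against hg38 (J.gamma1) or mm10 (mouse), per the labels and the submitters' processing notes. The deposited tables hold whole-number counts per Ensembl gene, 1 table per species. Strand and the conversion to counts are not given in the sources used here. Rows were named with GENCODE 44 and M21, rows without an annotated gene (0.172% to 2.11% of counts per library) were left out, and edgeR 4.0.16 was run on each table (filterByExpr, TMM scaling, quasi-likelihood test of condition, p adjusted over all genes tested). DESeq2 1.42.0, other scalings, filters, a replicate block, fold thresholds and leaving out each library were alternatives. Precision was limited by the 2 or 3 libraries per group, with a biological coefficient of variation of 0.165 (J.gamma1) and 0.271 (mouse). Replicate libraries differed by more than sampling noise and were each used as 1 sample. All 10 genes are named in both tables; other lists give counts and at most 3 genes per direction, and 1 listed gene is not reported here. The fits were tested on simulated data, in which calls with the J.gamma1 design held more false ones than the nominal rate, which bears on J.gamma1 calls near the threshold (REL, TNFAIP3, PDPK1, IRF1). Mouse promoters are RefSeq's (GRCm38.p6), human ones were read from hg38 at GENCODE starts. The members and lists were chosen with earlier results of these data known. The intervals for the count ratios of BCL3 and IL2RA cover counting error only.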

Additional observations from a re-analysis of the deposited data

Results flagged for a closer look

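Pathway genes that moved in opposite directions in both species, every altered library lying beyond every control library, and called in at least 1 of them, were NKIRAS2 (log2 fold change 0.72 in J.gamma1 cells, and -0.39 for Nkiras2 in mouse), BIRC3 (0.75, and -0.12 for Birc3) and IRF1 (0.50, and -0.20 for Irf1). They were called in J.gamma1 cells and in none of the mouse tests (edgeR adjusted p of 0.30, 0.68 and 0.52). Groups without overlap were common over all genes, with 29.6% higher and 28.7% lower in J.gamma1 cells and 18.2% and 17.8% in mouse. Among the 90 other pathway genes tested in mouse, 17 were lower without overlap. The share of all genes with the opposite pattern was not determined, and the differences between species were not tested. None of the 10 NF-kB subunit and inhibitor genes showed this pattern.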

How the results depend on the processing

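With 2 libraries per group, J.gamma1 calls near the threshold shifted. REL, TNFAIP3 and BCL3 stayed called with DESeq2, RLE or upper-quartile scaling and counts divided by 2, and BCL3 alone of the 10 with at least 1 count in any library (715 genes called in all) or a log2 fold change of at least 1 (5 pathway genes, 580 in all), where 1 member was called. TNFAIP3 was also lost at a log2 fold change of at least 0.5, and REL with all rows. Leaving out 1 library gave 1 to 3 members, 9 to 21 pathway genes and 837 to 3247 genes called in J.gamma1 cells (837 and 1034 without sh-IRF2BP2 replicate 1 and 2, and 3247 without sh-NC replicate 1, against 1764), and 0 to 5 pathway genes and 7 to 659 genes in mouse (7 without control replicate 1, 10 without KO replicate 2 and 50 without KO replicate 1, against 435). In mouse DESeq2 called 8 pathway genes and 1223 genes, and 4 pathway genes were called with at least 1 count in any library or with counts divided by 2. Mouse members stayed at 0 throughout. The upper-quartile scaling moved the split of J.gamma1 calls to 795 higher and 1033 lower.

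The replicate number was not a shared culture or animal in the labels. Deviations of same-numbered libraries correlated at 0.287 in J.gamma1 cells and at 0.210 and -0.109 in mouse. With 2 libraries per group both J.gamma1 pairs must give the same r, so 0.287 is 1 value and not agreement between pairs. With the replicate block 4 members, 25 pathway genes and 3547 genes were called in J.gamma1 cells, and NFKBIA passed (log2 fold change 0.44, adjusted p = 0.049). In mouse the block changed no member call, with Rel at a log2 fold change of 1.02. Control replicate 3 has no KO library of its number, so this fit draws the difference between the groups from replicates 1 and 2 only.

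Fold changes near zero turned sign, all below the threshold. RELA was at -0.020 with upper-quartile scaling, and leaving out 1 library gave ranges of -0.048 to 0.087 for RELA, -0.17 to 0.0012 for NFKB1, -0.043 to 0.42 for NFKB2, -0.39 to 0.00016 for NFKBIB, -0.16 to 0.041 for Nfkbia, -0.050 to 0.045 for Nfkb2, -0.28 to 0.011 for Nfkbie and -0.56 to 0.55 for Bcl3. The IkB to subunit ratio per length was 0.601 (sh-NC), 0.570 (sh-IRF2BP2), 0.682 (control) and 0.674 (KO) with the longest transcript, which is shorter than the merged exons for most of these genes. The cause of the other shifts was not tested.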
